A study of Mus musculus with 28 samples.

Results

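The 8 genes described here, Olfr754-ps1, Gm1110, Mmp10, Gm14047, Gm8711, A630077J23Rik, D930020E02Rik and Gm1698, were selected on their RNA read counts among 37991 annotated genes, as genes with almost no reads in control cells and many after Kap1 knockdown in at least 1 genotype. The choice used the same RNA libraries, so the rise itself is given as a description, without a test. All 8 passed the filter of at least 16 reads over the 16 RNA libraries, which 20321 genes passed, and each did so mainly through its knockdown libraries. RNA was sequenced from naive mouse embryonic stem cells of the J1 line (strain 129S4/SvJae), grown in 2i and LIF, that were wild type (WT), knockout for Dnmt1, Dnmt3a and Dnmt3b (DNMT TKO), or knockout for Tet1, Tet2 and Tet3 (TET TKO). Cells of each genotype carried either an empty hairpin vector (shEmpty) or a hairpin against Kap1 (shKap1), were selected with puromycin at 4 µg/mL and collected 5 days after transduction. Every library, controls included, therefore comes from transduced and selected cells. WT and DNMT TKO had 3 libraries per hairpin and TET TKO had 2. Each triple knockout is a single cell line obtained from another laboratory, so that the genotype and the line cannot be told apart. H3K4me3 and H3K27me3 regions and reads from hydroxymethylated DNA immunoprecipitation (hMeDIP), which enriches 5-hydroxymethylcytosine (5hmC), were available for WT cells. The KAP1 and H3K9me3 regions come from previously published mouse embryonic stem cell data, so that KAP1 binding in the knockout lines was not analysed here.

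KAP1, encoded by Trim28, is a corepressor that KRAB zinc finger proteins bring to their target sequences, most of which lie in transposable elements, and it recruits the machinery that deposits H3K9me3. DNA methyltransferases place 5-methylcytosine on CpG dinucleotides, and TET enzymes oxidise it to 5hmC. Endogenous retroviruses (ERVs) are flanked by long terminal repeats (LTRs) that hold a promoter, and transcripts that start in an LTR can run into genes that lie downstream of it.

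The gene libraries held 18108431 to 29373696 assigned reads. Trim28 was at 1752 ± 207 CPM (reads per 1e6 of the assigned reads after TMM scaling, SD, n = 3) in WT shEmpty and at 9.42% of that level in WT shKap1. In TET TKO shKap1 it was at 9.03% and in DNMT TKO shKap1 at 22.9% of the matching control, so the depletion was shallower in DNMT TKO cells. Of 8 embryonic stem cell markers, 7 were found, none at 0, with a summed level of 3640 to 3890 CPM in shEmpty libraries and 2200 to 2820 CPM in shKap1 libraries. Of 7 genes of the 2-cell-like state, 5 were found, and they summed to 8.18 to 31.0 CPM in shEmpty libraries, 195 to 229 CPM in WT shKap1, 74.4 to 178 CPM in DNMT TKO shKap1 and 637 to 647 CPM in TET TKO shKap1. The 5 endoderm genes summed to 4.01 to 13.5 CPM, the 5 trophoblast genes to 8.09 to 25.4 CPM and the 9 fibroblast genes to 10.8 to 26.4 CPM over all libraries. Of the 7 macrophage and blood genes, 6 were found. They summed to 9.60 to 28.1 CPM, nearly all from Cd68, while Ptprc, Lyz2, Emr1 and Il1b stayed under 0.1 CPM in every group. The part of these markers in the rise of the 8 genes was not tested.

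For 6 of the 8 genes at least 1 KAP1 region lay within 50 kb of the gene, a share near the 57.7% of all genes tested. The one nearest to the gene start was upstream of it in these 6, and how often this holds for all genes was not tested. The middle 200 bases of this nearest region are shown for each gene, although where KAP1 was bound within the region was not determined. They were read from the mouse genome build mm9 on the strand of the gene, 5′ to 3′, with each CpG in capitals, since CpG is the target of both DNMT and TET enzymes.
Olfr754-ps1, chr17:37376788-37376987, plus strand: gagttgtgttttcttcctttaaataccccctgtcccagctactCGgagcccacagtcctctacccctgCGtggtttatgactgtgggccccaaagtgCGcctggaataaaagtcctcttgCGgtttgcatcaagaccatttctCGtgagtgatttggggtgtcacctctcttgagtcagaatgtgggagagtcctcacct
Gm1110, chr9:26757907-26758106, minus strand: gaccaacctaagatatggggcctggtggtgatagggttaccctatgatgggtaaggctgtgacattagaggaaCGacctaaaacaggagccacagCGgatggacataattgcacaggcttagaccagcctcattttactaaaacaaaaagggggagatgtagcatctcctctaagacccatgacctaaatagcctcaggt
Mmp10, chr9:7494832-7495031, plus strand: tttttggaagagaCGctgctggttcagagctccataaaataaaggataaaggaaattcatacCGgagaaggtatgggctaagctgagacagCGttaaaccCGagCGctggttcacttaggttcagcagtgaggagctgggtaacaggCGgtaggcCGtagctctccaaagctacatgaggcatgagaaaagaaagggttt
Gm14047, chr2:129173202-129173401, plus strand: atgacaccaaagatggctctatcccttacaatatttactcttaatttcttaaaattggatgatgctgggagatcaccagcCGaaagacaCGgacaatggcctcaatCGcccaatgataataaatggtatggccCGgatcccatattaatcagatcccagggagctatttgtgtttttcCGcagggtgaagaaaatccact
A630077J23Rik, chr4:43766049-43766248, plus strand: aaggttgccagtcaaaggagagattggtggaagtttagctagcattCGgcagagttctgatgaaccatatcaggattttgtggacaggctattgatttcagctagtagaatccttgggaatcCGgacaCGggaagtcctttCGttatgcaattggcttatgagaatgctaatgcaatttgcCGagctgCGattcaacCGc
Gm1698, chr8:28671466-28671665, plus strand: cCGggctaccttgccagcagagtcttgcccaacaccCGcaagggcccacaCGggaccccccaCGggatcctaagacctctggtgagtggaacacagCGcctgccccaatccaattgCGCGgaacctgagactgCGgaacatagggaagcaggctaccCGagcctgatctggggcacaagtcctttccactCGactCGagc

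Each of the 6 windows overlapped an integrant, that is an annotated copy of a transposable element, on the same strand as the gene. These were an LTRIS2 LTR before Olfr754-ps1, an IAPEY3 internal part before Gm1110, an MMETn provirus before Mmp10, an MMERVK10C provirus before Gm14047, an ETnERV provirus before A630077J23Rik and an L1Md_A element before Gm1698. The windows held 5, 2, 7, 5, 7 and 11 CpGs in that order, and the median of the middle 200 bases of all 26222 KAP1 regions was 6 CpGs (quartiles 3 and 11). The letters TGCCGC, the core motif bound by ZFP57, were searched on both strands and were in none of the 6 windows. They were in 13.1% of all windows of that length.

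Which genotypes turned the genes on differed from gene to gene. By the call used for the whole table (edgeR adjusted p below 0.05 and at least 2-fold up), 6 of the 8 were called up in WT, where 10.8% of all genes tested were called up, 8 in DNMT TKO (10.1% of all genes) and 8 in TET TKO (8.05% of all genes). These counts follow from how the genes were chosen. Genes with less than 0.1 CPM on average in shEmpty and more than 1 CPM in each shKap1 library were rare. In WT they were 46 of 20271 silent genes (0.227%), in DNMT TKO 72 of 20228 (0.356%) and in TET TKO 127 of 20189 (0.629%). Of the 8 genes, 4, 7 and 6 were in this class in WT, DNMT TKO and TET TKO.

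**Figure D1:**
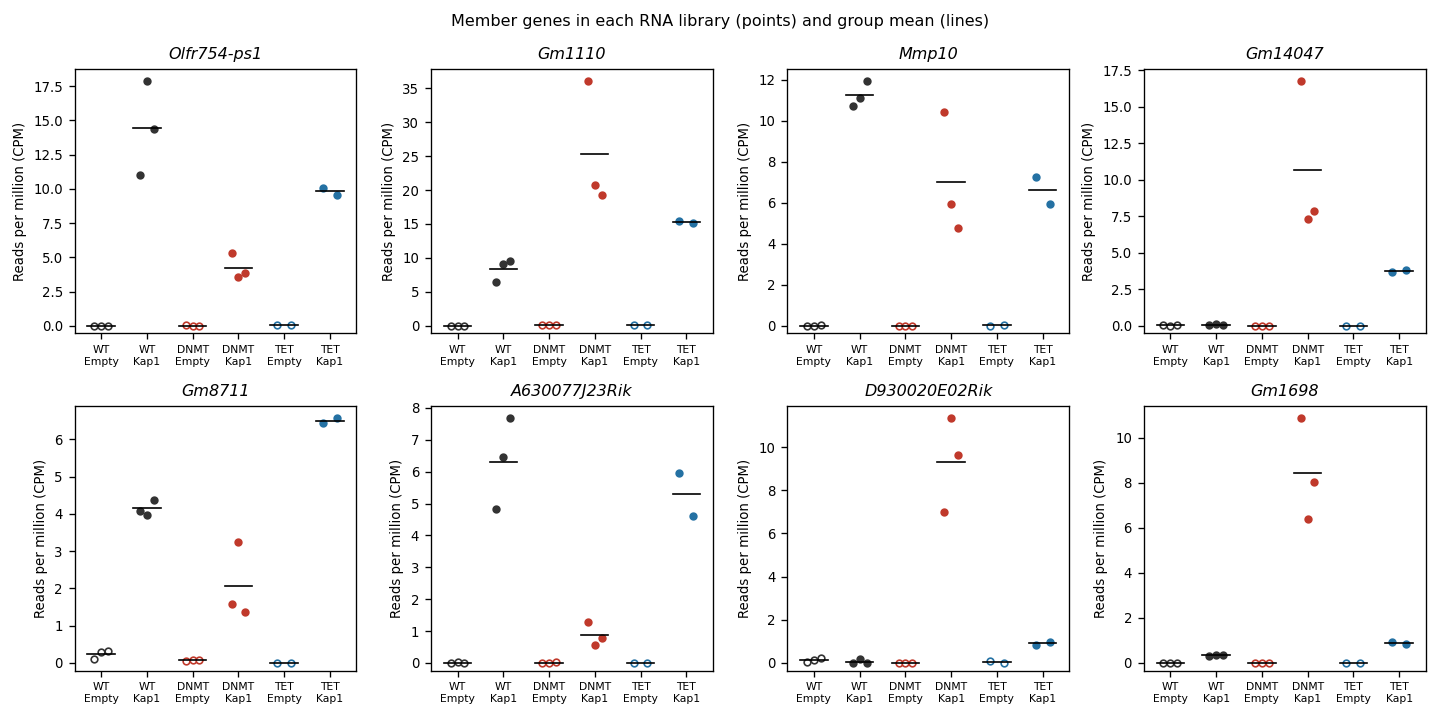
Level of each gene in CPM (linear axis, its own scale per gene) in the 16 RNA libraries; open points are shEmpty, filled points shKap1, and lines are group means. All shEmpty libraries sit at or below 0.318 CPM, while Gm14047, D930020E02Rik and Gm1698 reached their highest level in DNMT TKO shKap1 and stayed below 0.4 CPM in WT shKap1.

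Olfr754-ps1 (ENSMUSG00000092340, chr17:37386420-37387812, plus strand) is annotated as a pseudogene of the olfactory receptor family, whose genes are normally expressed in sensory neurons of the nose. It had 0 reads in all 3 WT shEmpty libraries and 11.01, 17.9 and 14.4 CPM in the WT shKap1 libraries. In DNMT TKO it was at 0.051, 0 and 0 CPM with shEmpty and at 5.33, 3.53 and 3.86 CPM with shKap1. In TET TKO it was at 0.035 and 0.038 CPM with shEmpty and at 10.1 and 9.55 CPM with shKap1. The levels after knockdown were highest in WT, lower in TET TKO and lowest in DNMT TKO, and the ranges of neighbouring genotypes in this order did not overlap. The knockdown libraries of WT were at least 363-fold higher than a floor of 3 reads over the 3 control libraries. The ratio of summed reads was 313 in DNMT TKO (95% interval 55.8 to 12400) and 270 in TET TKO (74.4 to 2240). These intervals, like all intervals for single genes here, are exact conditional binomial intervals and cover counting error only.

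The gene sits inside a run of integrants on its own strand. Of 22 such integrants tested within 50 kb, 21 were called up in WT, 20 in DNMT TKO and 20 in TET TKO. Of all integrants tested, 12.1%, 15.0% and 14.7% were called up. An integrant that is silent in controls passes the read filter through the knockdown libraries, so these counts follow in part from the choice of the locus. The same limit applies to silent integrants near the other genes. The first was LTRIS2 (chr17:37376485-37377000), which ended 9420 bases before the gene, and the KAP1 region (chr17:37376527-37377248) and the KAP1-dependent H3K9me3 region (chr17:37376401-37377999) overlapped this LTR and ran on past its end. The next integrant, an RLTR9A and MMERVK9E copy at chr17:37377001-37377457, was at 0, 0 and 0 CPM in WT shEmpty and at 2.20, 4.07 and 3.41 CPM in WT shKap1. B2_Mm1t and B2_Mm2, which end 241 and 104 bases before the gene start, and RMER4B in its intron were the nearest called integrants. All of these lie within Gm20429, a gene on the same strand, so their reads cannot be told apart from those of Gm20429. The B2 copies are part of the sum over upstream integrants. Summed over the 9 upstream integrants on the gene's strand, levels were 32.1 ± 10.5 CPM (SD, n = 3) in WT shKap1, 23.1 ± 2.68 (n = 2) in TET TKO shKap1 and 9.63 ± 4.28 (n = 3) in DNMT TKO shKap1. The means had the same order as those of the gene, but here WT (20.6 to 41.1 CPM) overlapped TET TKO (21.2 to 24.9 CPM).

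Genes further along the same strand had more reads too. Gm20429, which overlaps Olfr754-ps1 on the same strand and so cannot be wholly separated from it, went from 0.0237 ± 0.0411 to 11.8 ± 3.40 CPM (SD, n = 3) in WT. H2-M3, an MHC class Ib gene whose product presents formylated peptides, lies 19353 bases beyond the end of Olfr754-ps1. It went from 0.525 ± 0.283 to 7.47 ± 0.994 CPM in WT, from 0.315 ± 0.166 to 4.51 ± 0.530 CPM in DNMT TKO and from 0.453 ± 0.0568 to 8.30 ± 0.673 CPM in TET TKO (n = 2). Olfr755-ps1 followed it on the same strand, with 0 reads in the control libraries of each genotype and 0.599 ± 0.434 CPM in WT shKap1. Upstream of the repeats, Ubd did not pass the test in any genotype, with 14.3 ± 1.70 CPM in TET TKO shEmpty and 20.3 ± 0.236 CPM in TET TKO shKap1 (n = 2) and almost no reads in the other genotypes.

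Gm1110 (ENSMUSG00000079644, chr9:26687152-26730666, minus strand) is annotated as protein coding, with 21 exons. It had 0 reads in the WT shEmpty libraries and 6.5, 9.05 and 9.49 CPM in WT shKap1. DNMT TKO shEmpty libraries were at 0.051, 0.069 and 0.154 CPM and DNMT TKO shKap1 libraries at 36.1, 20.8 and 19.2 CPM. TET TKO libraries were at 0.070 and 0.038 CPM with shEmpty and at 15.4 and 15.1 CPM with shKap1. The order was thus the opposite of that for Olfr754-ps1, with DNMT TKO highest and WT lowest and no overlap between neighbours. DNMT TKO shKap1 replicate 1 stood well above the other two. The fold was at least 208 in WT, and the ratio of summed reads was 264 in DNMT TKO (128 to 658) and 279 in TET TKO (95.2 to 1360).

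The KAP1 regions lay far upstream. There were 4 of them between positions 26757756 and 26760396 of chromosome 9, the nearest 27.1 kb before the gene start, all inside 1 KAP1-dependent H3K9me3 region (chr9:26756601-26760999). They overlapped IAPEY3, IAP-d, MMERVK10D3, RLTR10 and RLTR10B2 pieces on the strand of Gm1110. The RLTR10 internal part at chr9:26759290-26760150 was at 0, 0.04 and 0 CPM in WT shEmpty and at 0.42, 0.82 and 0.64 CPM in WT shKap1. It reached 2.11, 1.55 and 1.26 CPM in DNMT TKO shKap1 and 1.25 and 1.08 CPM in TET TKO shKap1. Summed over 9 upstream integrants, levels were 1.99 ± 0.451 CPM in WT shKap1, 4.78 ± 1.44 in DNMT TKO shKap1 and 3.97 ± 0.0481 in TET TKO shKap1. The order of the means was that of the gene, although the ranges of DNMT TKO (3.86 to 6.44) and TET TKO (3.94 to 4.00) overlapped. The called integrants nearest to the gene start were intronic, namely an ID_B1, an L1_Mus2 and a PB1D10 copy, where reads of a repeat and of the unspliced gene cannot be told apart.

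Beyond the end of Gm1110, 2 beta-galactosidase-like genes on the same strand were called up in all genotypes. Glb1l3, 18744 bases away, went from 0.0115 ± 0.0199 to 2.55 ± 1.42 CPM in DNMT TKO, from 0.0176 ± 0.0249 to 1.15 ± 0.256 CPM in TET TKO, and from 0 reads to 0.125 ± 0.112 CPM in WT. Glb1l2, 73099 bases away, went from 4.65 ± 0.527 to 13.8 ± 0.878 CPM in WT. The 3 tested genes on the other side of the KAP1 regions, Acad8, Thyn1 and Vps26b, did not pass the call, with log2 changes of -0.18 to 0.27.

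Mmp10 (ENSMUSG00000047562, chr9:7502352-7510238, plus strand) encodes stromelysin-2, a secreted protease that degrades extracellular matrix. WT shEmpty libraries were at 0, 0 and 0.035 CPM and WT shKap1 libraries at 10.7, 11.1 and 11.9 CPM. DNMT TKO libraries were at 0 CPM with shEmpty and at 10.4, 5.93 and 4.75 CPM with shKap1. TET TKO libraries were at 0 and 0.038 CPM with shEmpty and at 7.27 and 5.95 CPM with shKap1. WT was highest without overlap, and DNMT TKO and TET TKO overlapped. The ratio of summed reads was 837 in WT (150 to 33100) and 365 in TET TKO (65.1 to 14500), and the fold was at least 170 in DNMT TKO.

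An MMETn provirus with RLTRETN_Mm LTRs, a non-autonomous ERV of the ERVK class, occupies chr9:7494474-7499290 on the strand of Mmp10 and ends 3062 bases before it. It was at 0.61, 0.53 and 0.74 CPM in WT shEmpty and at 14.5, 15.03 and 13.3 CPM in WT shKap1. In DNMT TKO it went from 1.73, 1.10 and 0.77 CPM to 16.2, 8.94 and 8.31 CPM, and in TET TKO from 0.35 and 0.68 CPM to 8.43 and 9.34 CPM. Unlike Mmp10, the provirus had reads in every control library. A KAP1 region (chr9:7494273-7495590) and a KAP1-dependent H3K9me3 region (chr9:7493801-7494999) covered its 5′ end, and another H3K9me3 region (chr9:7498401-7499399) its 3′ end, 2.95 kb before Mmp10. A MuRRS copy just before the MMETn provirus (chr9:7492656-7494473), on the same strand and also overlapping a KAP1 region, had 0 reads in all controls. It was at 1.87 ± 0.537 CPM in WT shKap1, 0.381 ± 0.130 in DNMT TKO shKap1 and 0.298 ± 0.159 in TET TKO shKap1. RLTR13E and an LTRIS_Mm copy between the MMETn provirus and the gene were the nearest other called integrants. The 4 other metalloproteinase genes within 100 kb stayed silent. Mmp1a, Mmp8 and Mmp27 had 0 reads in all 16 libraries, and Mmp3 had 5. Outside this window, Mmp1b and Mmp12 were called up in each genotype, as given below with the other Mmp genes.

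A630077J23Rik (ENSMUSG00000086864, chr4:43768995-43772336, plus strand) is annotated as a processed transcript with 3 exons. It was at 0, 0.036 and 0 CPM in WT shEmpty and at 4.82, 6.45 and 7.68 CPM in WT shKap1. In TET TKO it went from 0 reads to 5.97 and 4.62 CPM. In DNMT TKO it went from 0, 0 and 0.039 CPM to 1.30, 0.564 and 0.779 CPM. WT and TET TKO overlapped after knockdown, and TET TKO was 6.02 times higher than DNMT TKO. The ratio of summed reads was 470 in WT (83.9 to 18600) and 64.8 in DNMT TKO (11.2 to 2600), and the fold was at least 97.7 in TET TKO.

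It had the shortest distance to its KAP1 regions. An ETnERV provirus with ERVB7_1 LTRs (chr4:43764330-43768142) ended 853 bases before the gene on the same strand, with KAP1 regions at chr4:43764242-43765422 and chr4:43765424-43766873 and H3K9me3 at chr4:43765401-43766799. The provirus was at 0.22, 0.04 and 0.11 CPM in WT shEmpty and at 2.31, 3.33 and 3.15 CPM in WT shKap1. In TET TKO it had 0 reads with shEmpty and 2.31 and 2.00 CPM with shKap1. In DNMT TKO shKap1 it was at 0.67, 0.38 and 4.71 CPM, so that replicate 3 stood apart from the others, while A630077J23Rik itself did not stand apart in that library. The integrants that follow the gene, B1_Mus1, ID_B1 and B3, were called up in WT and TET TKO and not in DNMT TKO. The 5 tested genes within 100 kb, among them Hint2 and Tmem8b, did not pass the call.

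Gm8711 (ENSMUSG00000091552, chr10:99818871-99819750, plus strand) is annotated as a pseudogene and lies in a row of copies that include Gm8701, Gm4301, Gm4302, Gm4303, Gm4308, Gm8723, Gm4312 and Gm4781. It was the least silent of the 8 genes, at 0.111, 0.285 and 0.318 CPM in WT shEmpty and at 4.09, 3.98 and 4.37 CPM in WT shKap1. In DNMT TKO it went from 0.051, 0.069 and 0.077 CPM to 1.58, 3.25 and 1.37 CPM, and in TET TKO from 0 reads to 6.43 and 6.57 CPM. TET TKO was highest, then WT, then DNMT TKO, without overlap between neighbours. The ratio of summed reads was 16.2 in WT (10.2 to 27.3) and 30.0 in DNMT TKO (12.6 to 94.0), and the fold was at least 119 in TET TKO. Gm8723 and Gm4312, the copies with the most reads, followed the same order of means, with 3.45 ± 0.480 and 3.46 ± 0.316 CPM in WT shKap1, 5.47 ± 1.56 and 5.01 ± 0.840 CPM in TET TKO shKap1 (n = 2) and 1.00 ± 0.282 and 1.91 ± 0.493 CPM in DNMT TKO shKap1. Of the 100-base stretches in its exons, as long as the reads, 74.4% occur again within 100 kb, and for the other 7 genes this was 0% each. Per the study's methods, reads that map to several places were discarded before counting, so the counts of Gm8711 leave out reads that match another copy as well.

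No KAP1 region lay within 50 kb of Gm8711, and the nearest was 124 kb from its start. The 1 H3K9me3 region within 50 kb (chr10:99836801-99838999) was of the kind that did not depend on KAP1. No tested integrant within 50 kb was on its strand. On the other strand, an MT2B2 LTR 46436 bases upstream was at 0, 0 and 0.07 CPM in WT shEmpty, at 0.52, 0.61 and 0.80 CPM in WT shKap1 and at 1.81 and 1.75 CPM in TET TKO shKap1. An L1Md_F3 and an L1Md_T copy were the other called integrants. The levels of Gm8711 and of the summed 2-cell-like markers after knockdown had the same order over the genotypes, and the part of these cells in the result was not tested.

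Gm14047 (ENSMUSG00000074805, chr2:129195633-129201484, plus strand) is annotated as a processed transcript that overlaps Il1b, the gene of the cytokine interleukin-1 beta, on the opposite strand. Libraries were counted by strand, and Il1b had 1 read in all 16 libraries. Gm14047 stayed off in WT, with 0.056, 0 and 0.035 CPM in shEmpty and 0.052, 0.087 and 0.053 CPM in shKap1. It had 0 reads in every DNMT TKO and TET TKO shEmpty library. After knockdown it was at 16.8, 7.34 and 7.86 CPM in DNMT TKO and at 3.66 and 3.80 CPM in TET TKO. Neither range overlapped the next, and the fold was at least 258 in DNMT TKO and at least 68.3 in TET TKO. The ratio of 2.44 in WT (0.35 to 27) rests on 2 and 4 reads.

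The upstream provirus had the same on and off pattern, and it passed the read filter through the knockdown libraries of the knockout lines. MMERVK10C with RLTR10F LTRs lies on the strand of Gm14047 in 2 pieces, chr2:129169006-129170193 and chr2:129172595-129175906. The longer piece was at 0, 0.04 and 0 CPM in WT shEmpty and at 0.05, 0.04 and 0 CPM in WT shKap1. In DNMT TKO it went from 0 reads to 3.84, 3.10 and 3.41 CPM, and in TET TKO from 0 reads to 1.16 and 0.82 CPM. Both pieces overlapped KAP1 regions (chr2:129168942-129170868 and chr2:129173010-129173592) and KAP1-dependent H3K9me3 (chr2:129168401-129170799 and chr2:129174601-129176199). WT was also the genotype in which neither the provirus nor the gene was called up. The nearest called integrants, URR1B, an MTC copy and a B2_Mm2 copy, lie within the gene, and the last 2 overlap its exons.

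D930020E02Rik (ENSMUSG00000047977, chr14:69907401-69912356, minus strand) is annotated as protein coding. It was at 0.056, 0.142 and 0.248 CPM in WT shEmpty and at 0, 0.173 and 0 CPM in WT shKap1, and it was not called in WT. In DNMT TKO it went from 0 reads to 7.01, 11.3 and 9.64 CPM, and in TET TKO from 0.070 and 0 CPM to 0.833 and 0.975 CPM. DNMT TKO was 10.3 times higher than TET TKO after knockdown, without overlap. The fold was at least 233 in DNMT TKO, and the ratio of summed reads was 24.8 in TET TKO (6.39 to 212) and 0.407 in WT (0.0957 to 1.34).

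No KAP1 or H3K9me3 region lay within 50 kb of D930020E02Rik, and the nearest KAP1 region was 138 kb away, beyond its end. The tested integrants upstream on its strand passed the read filter mainly through DNMT TKO shKap1. Their pattern over the genotypes therefore follows in part from the filter. The 7 tested ones summed to 9.15 ± 2.81 CPM in DNMT TKO shKap1, 0.599 ± 0.266 CPM in TET TKO shKap1 and 0 reads in all 6 WT libraries. The nearest of these, an L2c and an ID_B1 copy, lie 12438 and 12682 bases upstream and are not retroviral. An LTR of the ERVL-MaLR class, MTD, lies 22837 bases upstream and went from 0 reads to 0.871 ± 0.328 CPM (SD, n = 3) in DNMT TKO. An internal piece of an ERV of the ERV1 class, RodERV21-int, overlaps an exon of the gene itself on the same strand, 2760 bases after its start. RodERV21-int went from 0 reads to 1.28 ± 0.360 CPM (SD, n = 3) in DNMT TKO. Its reads cannot be told apart from those of the gene. ID_B1 was at 3.31, 1.93 and 1.78 CPM in DNMT TKO shKap1 and at 0.32 and 0.26 CPM in TET TKO shKap1. Entpd4, which encodes a nucleotide-cleaving enzyme of the Golgi and lysosome, starts on the opposite strand 42852 bases from the gene and was called up in each genotype. It went from 9.21 ± 0.684 to 26.0 ± 2.24 CPM in WT, from 31.7 ± 0.817 to 82.9 ± 13.2 CPM in DNMT TKO and from 18.1 ± 0.216 to 48.7 ± 4.54 CPM in TET TKO. Loxl2, which encodes a lysyl oxidase, was called up in WT.

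Gm1698 (ENSMUSG00000074404, chr8:28714823-28730924, plus strand) is annotated as a processed transcript with 6 exons. It had 0 reads in all 8 shEmpty libraries. WT shKap1 libraries were at 0.315, 0.346 and 0.373 CPM, TET TKO shKap1 libraries at 0.926 and 0.821 CPM, and DNMT TKO shKap1 libraries at 10.9, 6.39 and 8.05 CPM. The 3 genotypes did not overlap, and DNMT TKO was 9.65 times higher than TET TKO. The fold was at least 209 in DNMT TKO, at least 16.1 in TET TKO and at least 8.55 in WT.

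An L1Md_A element, a young LINE-1, at chr8:28671244-28676838 on the same strand overlapped the nearest KAP1 region (chr8:28671036-28672094), 42.7 kb upstream, within a KAP1-dependent H3K9me3 region (chr8:28670201-28672599). It was at 0.06, 0.07 and 0.04 CPM in WT shEmpty and at 0.37, 0.52 and 0.48 CPM in WT shKap1, and it reached 1.01, 1.41 and 1.22 CPM in DNMT TKO shKap1. In TET TKO shKap1 it was at 0.556 and 0.257 CPM, a range that overlapped WT, whereas Gm1698 itself was higher in TET TKO than in WT. The integrants nearest to the start, L1MA4, Lx8b and MIRc, were called up in DNMT TKO alone, and they had few reads, with 0.817, 0.188 and 0.223 CPM over L1MA4 in DNMT TKO shKap1. They passed the read filter mainly through that group. Gm1698 was the only one of the 8 genes with an H3K4me3 region on its body (chr8:28717471-28718272), 2.65 kb after its start, in WT cells in which it had no reads in controls.

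**Figure D2:**
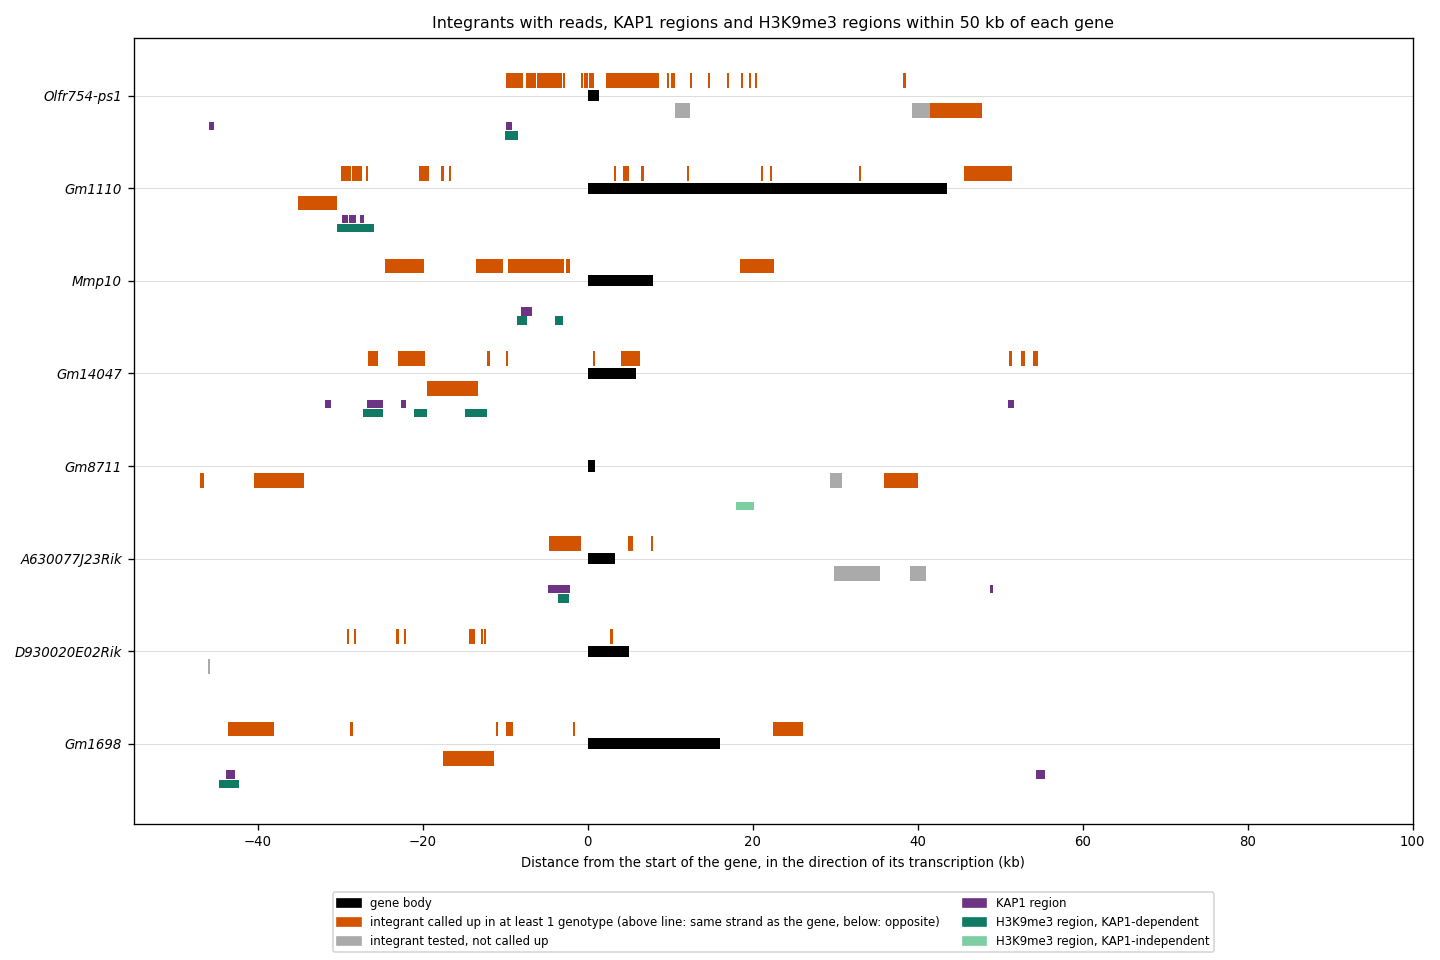
Integrants with enough reads to be tested (boxes above the line on the gene's strand, below it on the opposite strand; orange where called up in at least 1 genotype), KAP1 regions (purple) and H3K9me3 regions (green) by distance in kb from each gene start, with transcription to the right and the gene body in black. Of the 93 integrants, 79 are on the strand of the gene.

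Over the 8 loci, 315 integrants within 50 kb had at least 1 read and 93 could be tested. Of these, 47 were called up in WT, 78 in DNMT TKO and 60 in TET TKO, against 12.1%, 15.0% and 14.7% of all 123880 integrants tested. An integrant in a silent stretch passes the filter through the libraries in which it is on, so that these counts carry the choice of the loci. Of the 79 on the gene's strand, 43, 71 and 55 were called up in WT, DNMT TKO and TET TKO, and of the 14 on the opposite strand 4, 7 and 5. Of the 86 called up in at least 1 genotype, 14 overlapped a KAP1 region, and of all called integrants 26.9% did.

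**Figure D3:**
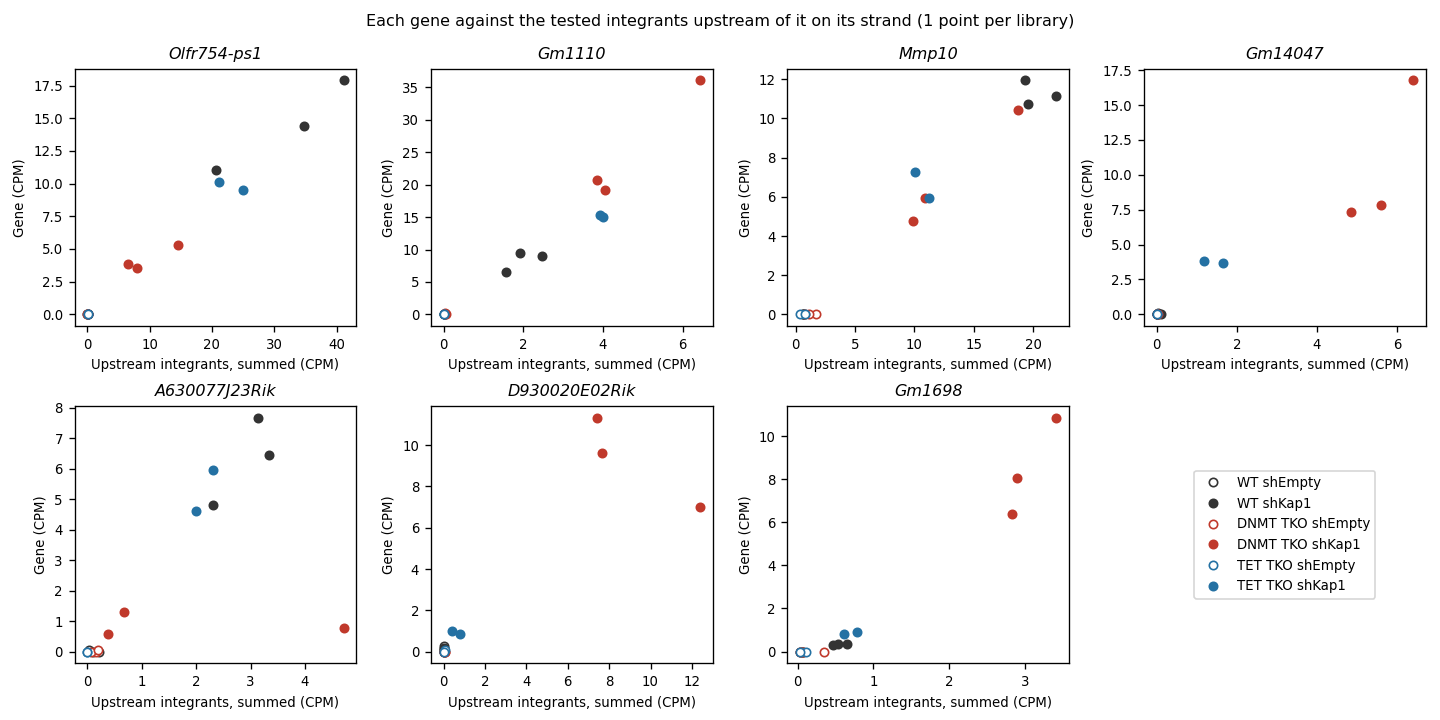
Level of each gene (vertical axis, CPM) against the summed level of the tested integrants upstream of it on its strand (horizontal axis, CPM), 1 point per RNA library; Gm8711 has no such integrant. Control libraries (open) lie near 0 on the vertical axis for every gene, while for Mmp10 they are at 0.388 to 1.73 CPM over the integrants, and for A630077J23Rik DNMT TKO shKap1 replicate 3 lies apart, with 4.71 CPM over the integrant.

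Regions of H3K4me3, a mark of active promoters, were on fewer of these genes than the share of all genes, while the counts for the other marks on and just before the gene were too small to set apart from theirs. The 8 genes were chosen for almost no reads in control cells, and the shares are over genes that passed the read filter. Few H3K4me3 regions in WT cells therefore follow in part from that choice. Within the body and the 5 kb before the start, 1 of the 8 genes had a KAP1 region (A630077J23Rik), against 18.3% of all genes tested, and 2 had H3K9me3 (A630077J23Rik and Mmp10), against 10.1%. H3K4me3 was on 1 of 8, against 76.3% of all genes, and H3K27me3, the Polycomb mark, on 0 of 8, against 24.7%. With 50 kb on each side, 6 of 8 had a KAP1 region (57.7% of all genes) and 7 of 8 had H3K9me3 (36.6%). H3K4me3 was then near 3 of 8 genes, against 91.5%, and H3K27me3 near 4 of 8, against 55.2%.

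5hmC was read over the KAP1 regions within 50 kb of each gene in WT cells, with 1 library per condition and so without a test. At the 2 regions near Olfr754-ps1, hMeDIP reads went from 27 to 105 while input reads went from 26 to 35. The 5hmC signal over input changed by 1.84 on the log2 scale (95% counting interval 0.902 to 2.78). Near Gm1698 hMeDIP reads went from 76 to 201 and input reads from 41 to 42, a change of 1.69 (0.971 to 2.41). The change was 0.911 near A630077J23Rik (0.282 to 1.54), 0.845 near Mmp10 (0.0242 to 1.67) and 0.71 near Gm1110 (0.0602 to 1.36). It was 0.19 near Gm14047 (-0.332 to 0.712), a sum over 4 regions that did not move alike. At the one farthest upstream, hMeDIP reads went from 11 to 36 and input reads from 16 to 15. At the longest one, hMeDIP reads went from 98 to 99 and input reads from 42 to 59. The 3 regions near A630077J23Rik did not move alike either. Over its upstream provirus, hMeDIP reads went from 63 to 155 and from 54 to 163, and input reads from 18 to 25 and from 17 to 25. At the region 48785 bases downstream of its start, hMeDIP reads went from 39 to 21 and input reads from 6 to 10. Near Gm1110, hMeDIP reads went from 28 to 90 at 1 region and from 48 to 52 at another. Over all 25992 KAP1 regions with at least 10 input reads the median change was 0.644 (quartiles 0.0606 and 1.20). The second hMeDIP set has labels and file names that give its libraries different roles, so it was put in no group. In the first set, 19.1% and 17.6% of input reads and 7.88% and 9.5% of hMeDIP reads lay in H3K4me3 regions. In the second set this share was 6.25% and 7.19% in the libraries that the file names call hMeDIP, and 19.3% and 18.5% in those that they call input, while the labels call 1 library of each kind hMeDIP. Read by its file names the change was positive at all 6 genes, as in the first set, with 1.5 near Gm1698, 1.08 near Mmp10, 0.812 near A630077J23Rik, 0.78 near Gm1110, 0.744 near Olfr754-ps1 and 0.456 near Gm14047. Gm1698 was thus high and Gm14047 lowest in both sets, while Olfr754-ps1 was highest in the first set alone. The labels exchange the roles so that each value has the same size with a negative sign. Over the H3K9me3 regions of the first set the change was 2.08 for Olfr754-ps1 (1.14 to 3.03), 0.877 for Gm1698 (0.222 to 1.53) and 0.19 for Gm14047 (-0.23 to 0.61). It was 1.17 for Gm1110, 1.09 for Mmp10 and 1.3 for A630077J23Rik. Gm1698 thus had a smaller change there than over its KAP1 regions. The 3 H3K9me3 regions near Gm14047 did not move alike. At chr2:129174601-129176199 hMeDIP reads went from 30 to 67 and input reads from 40 to 30. At chr2:129180801-129183399 hMeDIP reads went from 73 to 50 and input reads from 54 to 74.

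**Figure D4:**
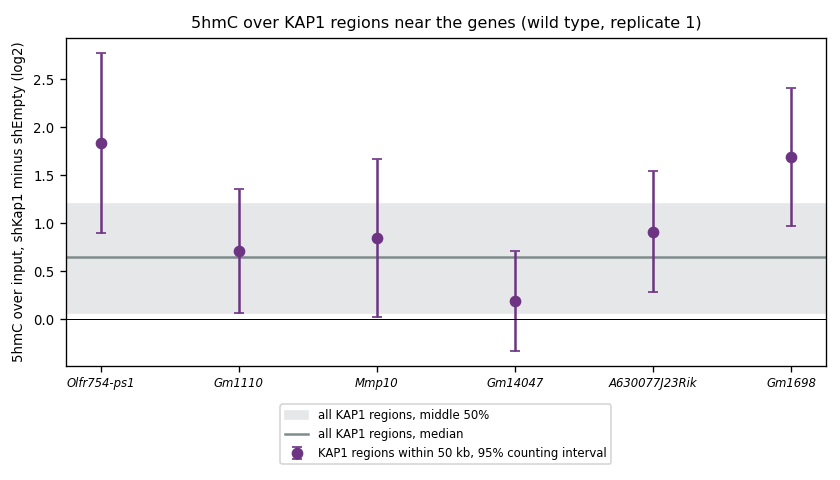
Change of 5hmC over input on knockdown (log2, wild type, replicate 1) summed over the KAP1 regions within 50 kb of each gene, with bars for the 95% counting interval; the grey line and band are the median and quartiles of all KAP1 regions. Olfr754-ps1 and Gm1698 sit above the band and Gm14047 is nearest to 0.

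Among genes rather than integrants, 70 were annotated within 100 kb of the 8 genes and 30 could be tested. Of the 30, 14 were called up in WT, 10 in DNMT TKO and 12 in TET TKO, where 10.8%, 10.1% and 8.05% of all genes tested were called up. The median log2 change was 1.23 in WT, 0.97 in DNMT TKO and 0.96 in TET TKO, against -0.01, 0.02 and -0.01 for all genes. A gene that is silent in controls reaches the filter through the libraries in which it is on, as Olfr755-ps1 and Gm4308 did. These counts and medians therefore follow in part from the choice of the loci and from the filter. Of the 14 in WT, 7 were near Gm8711, in the row of copies. Without Gm20429 and the 9 tested genes near Gm8711 the counts were 6, 5 and 5. No tested gene lay within 100 kb of Mmp10 or Gm1698, and Ckap2l, Gm14023 and Gm14045 near Gm14047 did not pass the call.

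**Figure D5:**
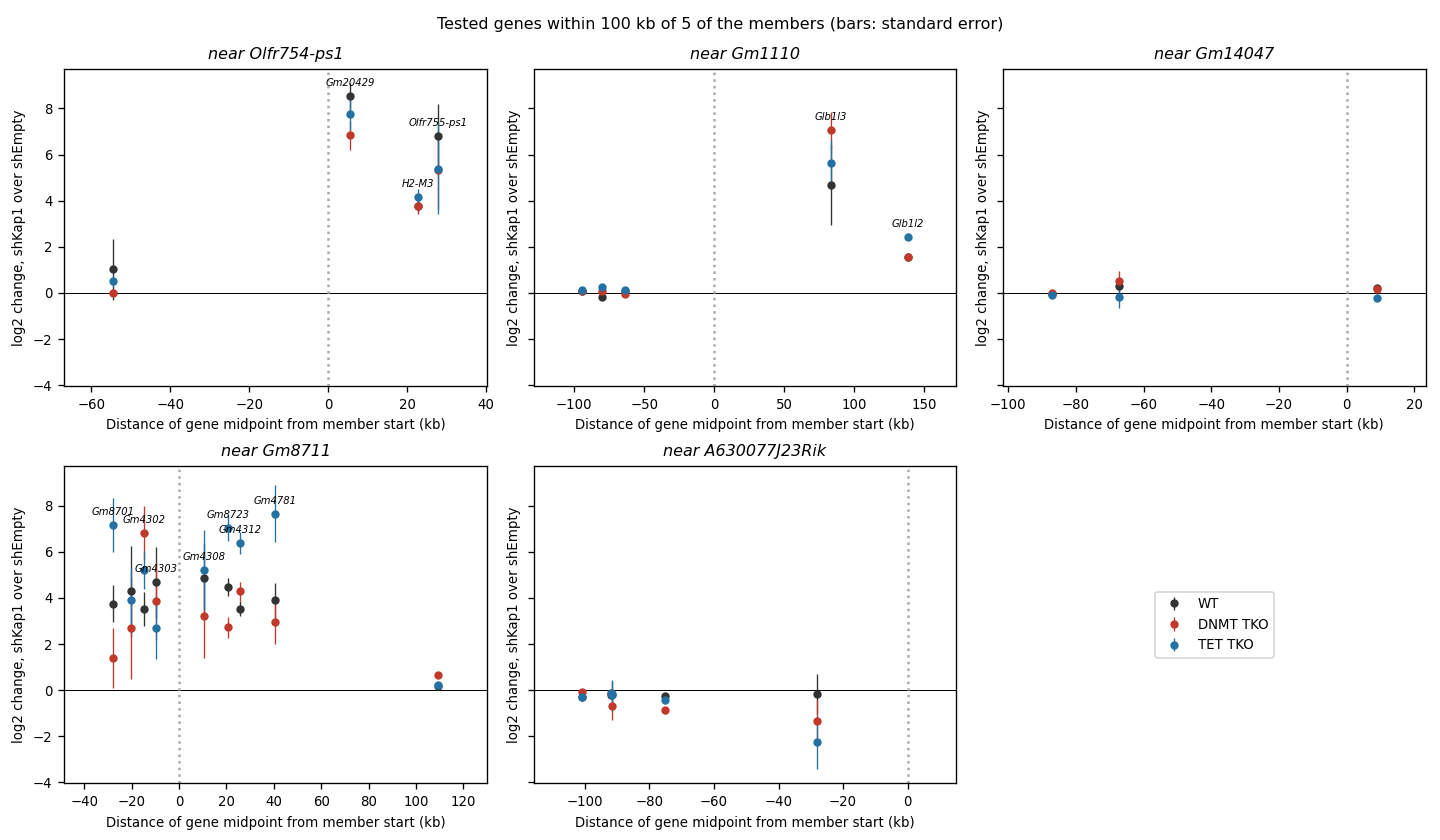
Log2 change on knockdown of each tested gene within 100 kb of 5 of the genes. The horizontal axis is the distance of its midpoint from the start of the gene named above the panel (kb, transcription of that gene to the right). Bars are the standard error derived from the edgeR fit, and names mark genes called in any genotype. Ubd near Olfr754-ps1 had 0 reads in DNMT TKO and is drawn there at 0 without a bar. Near Olfr754-ps1 and Gm1110 the called genes overlap or lie downstream of the gene, and no tested gene upstream of it passed the call.

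Families of 2 members were set beside them. Of the other Mmp genes, 16 of 22 could be tested. In WT 3 rose and 1 fell (10.8% and 6.54% of all genes), in DNMT TKO 4 rose and 1 fell (10.1% and 2.41%), and in TET TKO 2 rose and none fell (8.05% and 4.46%). With 16 genes tested, these counts were too small to set apart from those shares. The 16 genes had median log2 changes of 0.01, 0.59 and 0.06 against values near 0 for all genes. Mmp12, the macrophage elastase, rose by a log2 of 3.67 ± 0.58 (SE) in WT (edgeR adjusted p = 4.56e-05) by 3.28 ± 0.46 in DNMT TKO (edgeR adjusted p = 2.42e-05) and by 1.78 ± 0.42 in TET TKO (edgeR adjusted p = 0.00324). It was at 0.0895 ± 0.0463 CPM in WT shEmpty and at 1.27 ± 0.767 CPM in WT shKap1. Mmp1b rose in each genotype, by 5.09 ± 1.12 in WT (edgeR adjusted p = 0.00125), by 4.56 ± 0.78 in DNMT TKO (edgeR adjusted p = 0.000228) and by 5.16 ± 0.88 in TET TKO (edgeR adjusted p = 0.000254). Mmp23 rose from 1.78 ± 0.496 to 6.69 ± 0.577 CPM in WT, Mmp25 and Mmp28 rose in DNMT TKO, Mmp19 fell in WT and Mmp9 fell in DNMT TKO.

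Of 1250 other Olfr genes only 37 had enough reads to be tested, and a silent gene reaches the filter through the libraries in which it is on. Of the 37, 16 were called up and 2 down in WT, 20 up and 1 down in DNMT TKO and 20 up and 2 down in TET TKO. Of all genes, 10.8%, 10.1% and 8.05% were called up and 6.54%, 2.41% and 4.46% down in WT, DNMT TKO and TET TKO. Olfr1372-ps1 had the most reads and rose from 0.309 ± 0.179 to 10.6 ± 2.68 CPM in WT (edgeR adjusted p = 9.23e-10). Olfr165 and Olfr755-ps1 had 0 reads in the controls and were at 0.330 ± 0.0798 and 0.599 ± 0.434 CPM in WT shKap1. Olfr153 went the other way, from 0.866 ± 0.233 CPM to 0 reads in WT (edgeR adjusted p = 1.17e-06). It also fell in DNMT TKO, from 1.38 ± 0.302 to 0.305 ± 0.0216 CPM (edgeR adjusted p = 7.99e-05), and in TET TKO, from 1.12 ± 0.207 to 0.247 ± 0.0868 CPM (edgeR adjusted p = 0.00107). In WT, Olfr985 fell from 2.84 ± 0.297 to 1.17 ± 0.118 CPM (edgeR adjusted p = 0.00188). Olfr287 fell in TET TKO, from 0.872 ± 0.0124 to 0.0257 ± 0.0363 CPM (edgeR adjusted p = 4.84e-05). In DNMT TKO, Olfr335-ps and Olfr340 went from 0 reads to 0.280 ± 0.0841 and 0.234 ± 0.120 CPM, and in TET TKO Olfr699 and Olfr147 went from 0 reads to 0.717 ± 0.361 and 0.578 ± 0.164 CPM. The knockdown effect itself differed from that in WT for 7.14% of all genes in DNMT TKO and for 4.21% in TET TKO, and the Mmp and Olfr genes among them are Mmp9, Mmp19, Mmp23, Mmp25, Mmp28, Olfr153, Olfr335-ps, Olfr376 and Olfr699.

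The genes with the most similar level over the 16 libraries were found by Pearson correlation of log2 CPM among 15272 genes with at least 200 reads. The libraries fall into control and knockdown, so that these are descriptions without a p. Olfr754-ps1 was nearest to Gm20429 (r = 0.993) and Nt5m (0.9916), Gm1110 to BC051019 (0.9914) and Gm12011 (0.9876), and Mmp10 to Igfbp3 (0.9886) and Cml2 (0.9845). Gm14047 was nearest to Glb1l3 (0.9729), the gene beyond Gm1110 on another chromosome, and to Gm14085 (0.970). Gm8711 was nearest to Pramef6 (0.9853) and AU019990 (0.9845), and A630077J23Rik to Abp1 (0.9862) and Pppde1 (0.9819). D930020E02Rik was nearest to 1700018A04Rik (0.9527) and Ssx2ip (0.9385), and Gm1698 to Gm11100 (0.9867) and Ugt3a2 (0.9849).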

How the data were processed

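Per the study's methods, RNA reads (stranded, single end) were aligned to mm9 with HISAT2, reads that did not map uniquely were discarded, and the authors deposited raw counts per gene (featureCounts, on the reverse strand, mapping quality filter) and raw counts per transposable element integrant (bedtools multicov by strand). The file headers name a file of the form TopHat writes, so the aligner of the counted reads is uncertain. Unique mapping lowers the counts of young, near-identical repeats and of gene copies. Read counts of hMeDIP and input libraries over region sets were also deposited, and H3K4me3 and H3K27me3 region files carry a peak caller score per the file headers, which was not used beyond the positions. KAP1 regions came from MACS and H3K9me3 regions from SICER.

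Counts were tested with edgeR 4.0.16 (quasi-likelihood, TMM factors of the gene counts, R 4.3.3) in 1 fit over all 16 RNA libraries without a replicate block. Features with at least 16 reads in all were kept, p-values were adjusted by Benjamini-Hochberg over all of them, and a call needs an adjusted p below 0.05 and at least 2-fold. The standard error (SE) of a log2 change was derived as its size divided by the square root of the quasi-likelihood F. The study states that the replicates of each genotype came from independent experiments. The scripts were tested on simulated counts with known changes in WT shKap1. Of 2-fold, 4-fold and 8-fold changes, 88.1%, 95.5% and 100% were recovered for genes and 17.9%, 85.1% and 98.5% for integrants. Only features with at least 200 reads were changed, so recovery at integrants with fewer reads was not measured. An integrant that was not called may therefore still have changed. Same-numbered WT libraries deviated together (r of 0.274, 0.118 and 0.121 between shEmpty and shKap1), as did WT and DNMT TKO shEmpty libraries (0.317, 0.135 and 0.148). In DNMT TKO the values between shEmpty and shKap1 were of similar size (0.33, 0.174 and 0.078), and in TET TKO they were -0.004 and -0.004. This pairing was read from the values alone, since labels and methods do not state one. The 5hmC change is the log2 ratio of hMeDIP over input, scaled by reads in all region sets, with 1 read added. Symbols were matched for 37205 gene IDs. The members, gene lists and tests were chosen with earlier results of these data known. The named genes are the 8 members and Trim28, for each member the 3 nearest called genes within 100 kb, the 3 called integrants nearest to its start and the 2 genes most correlated with it, and up to 3 called Mmp and Olfr genes with the largest change per direction and genotype. Integrants on KAP1 regions and a few other neighbours were added after their values were seen. A gene that this rule names is not reported here.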

Additional observations from a re-analysis of the deposited data

Results flagged for a closer look

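The effect of Kap1 knockdown differed between genotypes for several genes of the families and neighbourhoods described, by the interaction term of the edgeR fit with p-values adjusted over all genes. Of all genes tested, 7.14% passed this test between DNMT TKO and WT and 4.21% between TET TKO and WT. In DNMT TKO the log2 effect was higher than in WT for Mmp28 by 1.80 ± 0.34 (SE, adjusted p = 0.00116), for Mmp25 by 1.24 ± 0.41 (adjusted p = 0.0455) and for Mmp19 by 1.06 ± 0.33 (adjusted p = 0.0313). For Mmp23 the difference was -1.08 ± 0.30 (adjusted p = 0.0176) and for Mmp9 it was -1.60 ± 0.52 (adjusted p = 0.0381).

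In TET TKO the difference from WT was 3.58 ± 1.07 for Olfr376 (adjusted p = 0.0425), -4.43 ± 0.89 for Olfr335-ps (adjusted p = 0.00459) and -1.05 ± 0.32 for Mmp23 (adjusted p = 0.0445). Near D930020E02Rik the difference for Loxl2 was -1.63 ± 0.47 (adjusted p = 0.036), and near Gm8711 that for Gm4312 was 2.86 ± 0.73 (adjusted p = 0.0191), in a row of near-identical copies. For Olfr153 the difference from WT was 5.21 ± 1.10 in DNMT TKO (adjusted p = 0.00345) and 5.20 ± 1.19 in TET TKO (adjusted p = 0.0114), and for Olfr699 it was 4.90 ± 1.41 in TET TKO (adjusted p = 0.0367). Olfr153 fell in all 3 genotypes, so its positive difference is a smaller fall than in WT. The values for Olfr153 and Olfr699 depend on the prior count, because Olfr153 had 0 reads in WT shKap1 and Olfr699 had 0 reads in TET TKO shEmpty.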

How the results depend on the processing

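Counts of calls depended most on the fold threshold. Without it, 4672, 4002 and 3108 genes were called up and 4605, 3168 and 3070 down in WT, DNMT TKO and TET TKO, 7, 8 and 5 Mmp genes were called, 2 genes within 100 kb were down in WT and 1 in DNMT TKO, and 2 (DNMT TKO) and 4 (TET TKO) of them differed in effect from WT. With a window of 200 kb, 2, 1 and 2 genes were down and 1 differed in DNMT TKO. In TET TKO 1 differed with limma-voom and 1 with a window of 50 kb. The 1 integrant called down in WT was 0 without a filter beyond 1 read, with filterByExpr, with the DESeq2 Wald test, within 20 kb and on the member strand, and 2 within 100 kb, where DNMT TKO had 2 and TET TKO 1. With filterByExpr, 47 integrants were up in DNMT TKO, since fewer were tested. Without Gm20429 and the genes near Gm8711, an alternative chosen after seeing the data, 6, 5 and 5 genes were up.

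Members with a KAP1 region were 0 on the gene body alone and 6 with 50 kb on each side, and those with H3K9me3 were 0 and 7. The second hMeDIP set, read by its labels, reversed the 5hmC change for Olfr754-ps1 (-0.744), Gm1110 (-0.78), Mmp10 (-1.08), Gm14047 (-0.456), A630077J23Rik (-0.812) and Gm1698 (-1.5). By its file names, which give the same sizes with a positive sign, Olfr754-ps1 was at 0.744. The signs follow from the exchanged roles, and the share of reads in H3K4me3 regions matched the file names. Scaling by the reads in H3K4me3 regions instead of all region sets gave -0.198 for Gm14047. Only the library totals differ in this scaling, so it lowers the log2 change at each gene by the same amount.

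With the replicate block, 2206, 2067 and 1682 genes were up, as were 14, 9 and 12 genes within 100 kb and 47, 75 and 59 integrants, and no count moved by over 1.5 times. Leaving out 1 library at a time, genes within 100 kb called down ranged from 0 to 1 in DNMT TKO (1 without shEmpty replicate 1) and from 0 to 1 in TET TKO (1 without shEmpty replicate 2). Called Mmp genes in TET TKO ranged from 2 to 4 (4 without shKap1 replicate 2). Genes that differed in effect ranged from 0 to 1 in DNMT TKO (1 without shEmpty replicate 1) and from 0 to 2 in TET TKO. Integrants called down in WT ranged from 0 to 1. With 2 libraries per group in TET TKO, leaving out 1 assumes that the remaining one varies like the other groups. A group at 0 reads limits each fold to a lower bound, and 5hmC rests on 1 library per condition.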
